A study of Mus musculus with 6 samples.

Results

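The RNA editing genes described here are 9 genes of the mouse. Apobec1, Apobec2 and Apobec3 belong to the APOBEC family. The others are the Apobec1 cofactors A1cf and Rbm47 with their relative Syncrip, and the adenosine deaminases Adar, Adarb1 and Adarb2. The 9 genes were taken by name from the array annotation, using probe sets with a single gene symbol. For a gene with several of them, the one that read highest on average was used. All 9 were found among the 19938 genes tested. The list was drawn up with results of these arrays known, namely the low Apobec1 value in the mutants. The comparison of mutants with controls is therefore given for Apobec1 as a description and without a test.

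RNA of the neocortex, the layered outer part of the developing forebrain, came from 6 mouse samples of embryonic day 14.5. The sample labels do not state whether a sample is a single embryo or a pool. The 3 mutants were Bcl11aΔflox/Δflox, with the deleted form of a floxed allele of Bcl11a on both chromosomes, and the 3 controls were Bcl11a+/+. Bcl11a encodes a zinc finger transcription factor, and the study asked which genes depend on it in the migration of cortical projection neurons. Each sample gave 1 Affymetrix Mouse Gene 1.0 ST array of log2 expression values. Which Cre driver was used, which cells lost the allele and which exon was removed is not given in the labels.

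RNA editing changes single bases of a transcript after it has been made. APOBEC1 turns cytidine into uridine, a reaction first known from the apolipoprotein B transcript of the gut, and needs an RNA-binding cofactor to find its site. ADAR enzymes turn adenosine into inosine in double-stranded RNA, which in the brain recodes transcripts of ion channels and neurotransmitter receptors. An expression array reads how much RNA of a gene is present and does not read editing itself.

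Bcl11a had 11.41, 11.49 and 11.34 on the log2 scale in the mutants, against 12.20, 12.30 and 12.26 in the controls. The groups did not overlap. The position of its probes is not known here, and probes outside the removed exon would not check the genotype. Correlations between arrays were 0.993 to 0.997. All 10 measured genes of 12 listed for neocortical neurons and progenitors, among them Emx1, Neurod6 and Tbr1, were above a limit for dim probe sets. That limit, 6.39 on the log2 scale, is the 95th percentile of the means of 1027 olfactory receptor genes, a family known for its expression in the nose. Of the RNA editing genes, 6 of 9 were above it, and A1cf, Rbm47 and Adarb2 were below it. Probe sets differ in how brightly they read, so levels are compared between arrays and not between genes.

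The windows around the start sites of Apobec1 and Apobec3 are shown because these genes had the largest differences among the 9 and because the mutants carry a deletion in a transcription factor gene. Each window holds 250 bases before and 50 after a start site, from RefSeq on GRCm38.p6, and is printed in the direction of transcription. Capitals mark a match, on either strand, to TGACCA, a motif bound by BCL11A in human red cell precursors, or to the core of the interferon-stimulated response element, which is GAAA followed after 2 bases by GAAA again. The 2 motifs do not overlap in these windows. The Apobec1 window, chr6:122602395-122602694 on the minus strand, holds neither of them. The first Apobec3 window, chr15:79892158-79892457 on the plus strand, holds the interferon core, and the second, chr15:79894773-79895072 on the plus strand, holds TGACCA.
Apobec1 window: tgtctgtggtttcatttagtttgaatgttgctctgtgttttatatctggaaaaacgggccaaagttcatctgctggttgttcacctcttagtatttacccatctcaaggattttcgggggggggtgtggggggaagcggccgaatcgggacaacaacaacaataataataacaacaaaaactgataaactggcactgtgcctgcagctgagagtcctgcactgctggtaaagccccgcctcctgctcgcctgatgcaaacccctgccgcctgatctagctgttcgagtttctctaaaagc
Apobec3 first window: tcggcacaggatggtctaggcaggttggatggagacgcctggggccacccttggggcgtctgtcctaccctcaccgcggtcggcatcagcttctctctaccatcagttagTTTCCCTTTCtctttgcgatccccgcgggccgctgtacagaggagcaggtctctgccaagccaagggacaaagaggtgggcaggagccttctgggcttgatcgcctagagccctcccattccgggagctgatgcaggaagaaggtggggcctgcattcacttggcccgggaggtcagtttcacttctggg
Apobec3 second window: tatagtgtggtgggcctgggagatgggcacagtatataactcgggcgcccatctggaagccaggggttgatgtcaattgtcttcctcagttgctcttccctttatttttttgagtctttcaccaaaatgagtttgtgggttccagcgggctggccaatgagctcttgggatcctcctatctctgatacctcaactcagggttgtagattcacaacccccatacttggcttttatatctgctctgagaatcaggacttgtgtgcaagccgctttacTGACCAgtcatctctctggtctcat
The table held 14 windows for the 9 genes. TGACCA was found in 2 of the 14, the second of Apobec3 and that of A1cf, and in 13.6% of all 32851 windows. The interferon core was found in 1 of the 14 and in 3.44% of all windows. A match is only a run of letters, and binding was not measured.

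Of the APOBEC family genes, Apobec1 was lower in the mutants, Apobec3 was higher without passing the threshold, and Apobec2 overlapped between the groups. Apobec1 (Entrez 11810) had 8.15, 7.91 and 7.91 in the mutants, against 8.77, 8.84 and 8.85 in the controls. The highest mutant lay below the lowest control, and the control values were close together. Means were 7.99 ± 0.14 in the mutants and 8.82 ± 0.04 in the controls (SD, n = 3 arrays each). The log2 difference was -0.83 ± 0.08 (SE). This is a 1.78-fold lower level in the mutants, with a 95% interval of -1.01 to -0.65 for the log2 difference. Of all 19938 genes, 5 had a more negative difference, and 0.196% had a larger difference in either direction. In a whole tissue, fewer cells that express a gene and less of its RNA per cell cannot be told apart.

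In the limma fit over all genes, with an adjusted p under 0.05 as the threshold, 57 genes or 0.286% were called. Of the RNA editing genes 1 of 9, Apobec1, was among them, and since that call was the reason for the list, nothing is read from it. Of all genes, 49 (0.246%) were called higher and 8 (0.0401%) lower, and among these 8 Crabp1 and Bcl11a had more negative differences than Apobec1. Of the 8 other genes of the list, 1 had an unadjusted limma p under 0.05, Apobec3, a level that 6.05% of all genes reached. Over the 13 alternative settings the log2 difference of Apobec1 lay between -0.91 and -0.79.

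Apobec3 (Entrez 80287), a deaminase that restricts retroviruses, had 8.34, 8.17 and 8.10 in the mutants, against 7.63, 7.75 and 7.95 in the controls. The lowest mutant was 0.15 above the highest control, so the groups did not overlap. Means were 8.21 ± 0.12 in the mutants and 7.78 ± 0.16 in the controls (SD, n = 3 arrays each). The log2 difference was 0.43 ± 0.10 (SE), or 1.35-fold, and did not pass over all genes (limma adjusted p = 0.186). It was called only when limma gave the arrays weights, estimated from these same values (limma adjusted p = 0.0227). Under that setting 217 genes were called in place of 57. Replicate 2 had the largest weight in each group, 2.18 in the mutants and 3.02 in the controls. The weights of the other arrays lay between 0.45 and 0.94.

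A second probe set of Apobec3 gave a different picture. It had 7.50, 7.23 and 7.14 in the mutants, against 7.40, 6.99 and 7.02 in the controls. These values overlapped, with replicate 1 of both genotypes at the top, and the log2 difference was 0.15 ± 0.13 (SE). With the mean of both probe sets, Apobec3 differed by 0.29 (limma adjusted p = 0.429).

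Apobec2 (Entrez 11811), a family member of skeletal and heart muscle, had 6.55, 6.56 and 6.70 in the mutants, against 6.82, 6.63 and 7.13 in the controls. The highest mutant lay above the lowest control, and the controls spread over 0.50 on the log2 scale. The log2 difference was -0.25 ± 0.12 (SE), with a 95% interval of -0.52 to 0.01 and no call (limma adjusted p = 0.879). Without control replicate 3, the highest of the 6 arrays, it was -0.12.

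**Figure D1:**
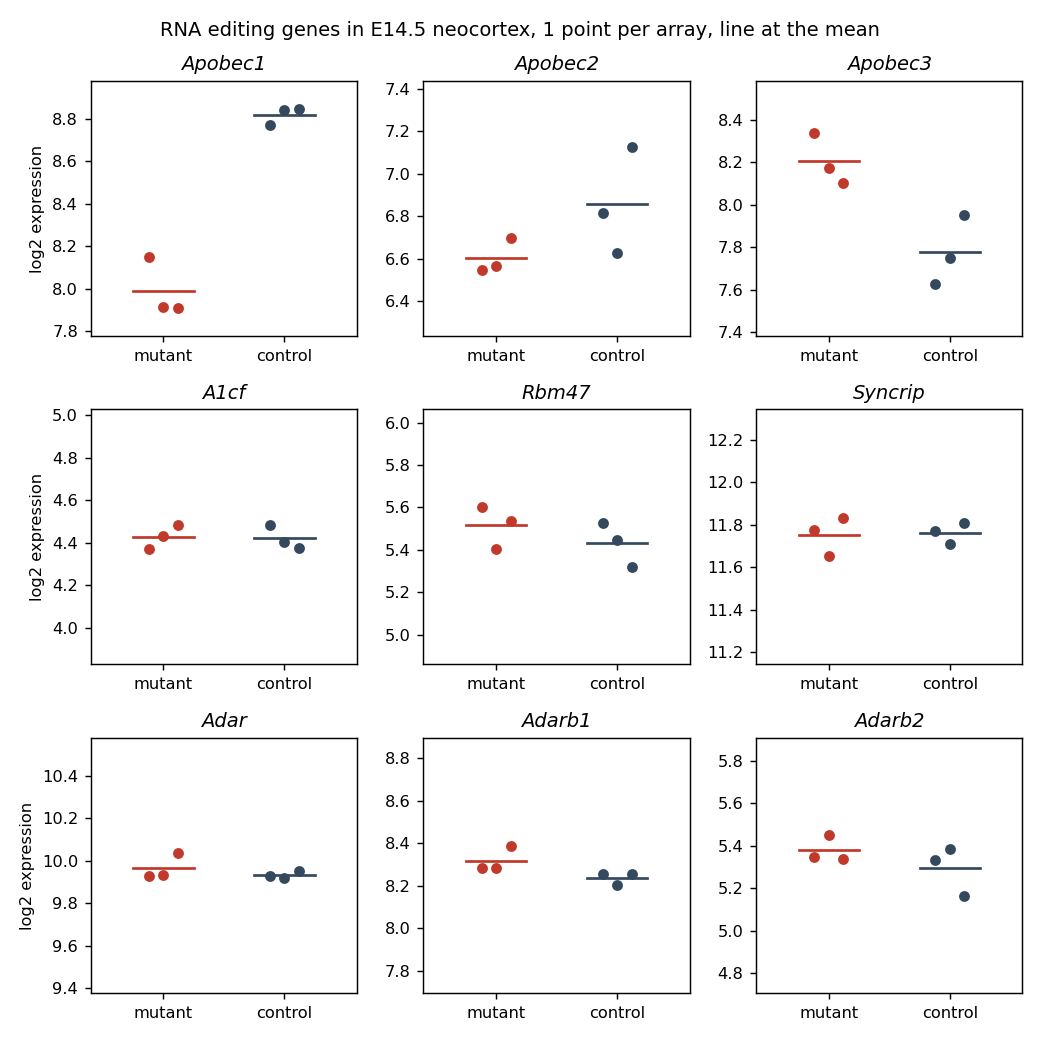
Log2 expression of the 9 RNA editing genes, 1 point per array with replicates 1 to 3 from left to right and a line at the mean of 3 mutants or 3 controls; every panel spans 1.2 on the log2 scale. Apobec1 shows mutants at 7.91 to 8.15 and controls at 8.77 to 8.85, and the cofactors and adenosine deaminases show mean differences between -0.01 and 0.08.

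None of the RNA-binding partners of Apobec1 among the 9 genes passed. Syncrip (Entrez 56403), an abundant RNA-binding protein of the hnRNP family that binds APOBEC1 and its cofactor A1CF, had 11.77, 11.65 and 11.83 in the mutants, against 11.77, 11.71 and 11.81 in the controls. The groups overlapped, with mutant replicate 2 as the lowest array and mutant replicate 3 as the highest. The log2 difference was -0.01 ± 0.07 (SE), with a 95% interval of -0.16 to 0.15. A1cf (Entrez 69865), which encodes a cofactor that docks APOBEC1 onto its target, had 4.37, 4.43 and 4.48 in the mutants, against 4.48, 4.40 and 4.37 in the controls. Rbm47 (Entrez 245945), which encodes a further cofactor able to replace A1CF, had 5.60, 5.41 and 5.54 in the mutants, against 5.53, 5.45 and 5.32 in the controls. Both A1cf and Rbm47 lay under the dim limit in every array, where RMA understates changes. Their log2 differences were 0.01 ± 0.06 and 0.08 ± 0.08 (SE). The limma adjusted p was 0.9995 for each of the 3 genes.

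None of the adenosine deaminases passed, and their differences were small. Adar (Entrez 56417), the editor of long double-stranded RNA in most tissues, had 9.93, 9.93 and 10.04 in the mutants, against 9.93, 9.92 and 9.95 in the controls. Mutant replicate 3 was the highest array and the other 5 lay between 9.92 and 9.95. Its log2 difference was 0.03 ± 0.06 (SE), with a 95% interval of -0.10 to 0.17.

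Adarb1 (Entrez 110532), also called Adar2, edits the glutamate receptor transcript Gria2 at the site that makes the channel impermeable to calcium. It had 8.28, 8.28 and 8.39 in the mutants, against 8.25, 8.20 and 8.26 in the controls. The groups did not overlap, by a margin of 0.03, and the log2 difference was 0.08 ± 0.06 (SE), with a 95% interval of -0.06 to 0.22. Adarb2 (Entrez 94191), a brain member of the family with no known editing activity, had 5.35, 5.45 and 5.34 in the mutants, against 5.33, 5.38 and 5.16 in the controls. It lay under the dim limit in every array, with a log2 difference of 0.08 ± 0.07 (SE). The limma adjusted p was 0.9995 for each of the 3 adenosine deaminases.

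Across the 9 genes, 6 had a positive and 3 a negative log2 difference, with a median of 0.03. The median lay between -0.0029 and 0.05 when 1 array was left out. Over all genes 60.3% were positive and the median was 0.02. Apobec1, which prompted the list, is part of these counts. Of the other 8, the groups did not overlap for 2, Apobec3 and Adarb1, both higher in the mutants. The share of all genes without overlap was 10.5%, with 7.69% higher and 2.85% lower in the mutants. The lower ones include Apobec1, from which nothing is read here.

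**Figure D2:**
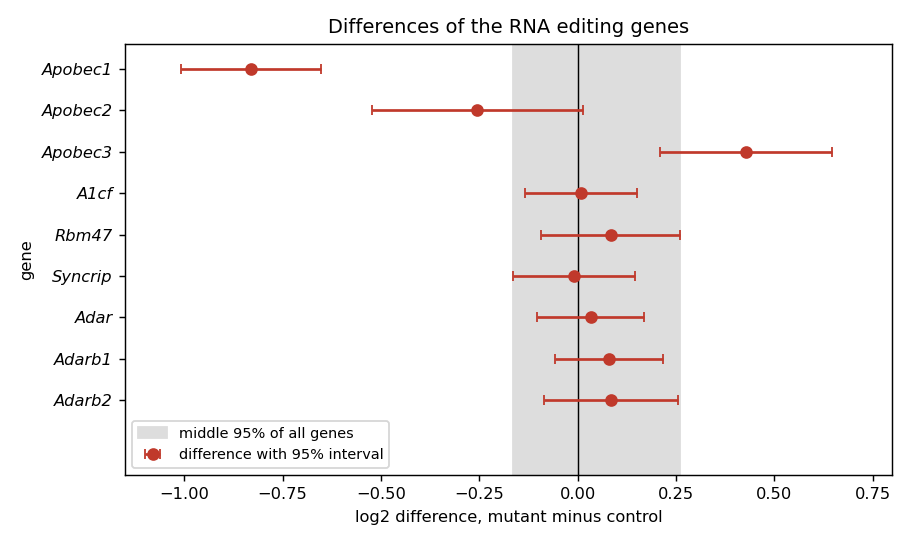
Log2 difference of mutant minus control for each RNA editing gene, with the 95% interval of the limma fit on 3 arrays per group; the grey band holds the middle 95% of all 19938 genes, from -0.16 to 0.26. Apobec1 at -0.83, Apobec2 at -0.25 and Apobec3 at 0.43 lie outside the band, and the other 6 differences lie between -0.01 and 0.08.

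None of the genes on 3 lists of the editing machinery passed, and at an unadjusted limma p under 0.05 there was 1, Rbm46. Of 9 listed Apobec1 partners and A1cf relatives, all were measured, 6 were positive and the median was 0.04. Rbm46, a germ cell relative of A1cf, had 6.54, 6.40 and 6.47 in the mutants, against 6.19, 6.34 and 6.24 in the controls. Its groups did not overlap, its mean lay just under the dim limit and its log2 difference was 0.21 (limma adjusted p = 0.478). Dnajb11 and Celf2, which encode proteins known to bind APOBEC1, both differed by 0.05. Of 10 other deaminases, 8 were measured, 7 were positive and the median was 0.03. Dctd, which deaminates deoxycytidylate, differed by -0.17, Adat2, which edits transfer RNA, by 0.08, and Apobec4, which lay under the dim limit, by 0.06. Of 16 regulators and partners of ADAR enzymes, 13 were measured, 4 were positive and the median was -0.02. Srsf9, a splicing factor that lowers editing by ADAR2, differed by -0.13 with groups that did not overlap. Wwp2, a ubiquitin ligase that acts on ADAR2, differed by 0.12, and Zfr, an RNA-binding protein, by 0.08. Leaving out 1 array moved the medians of these 3 lists to values between -0.05 and 0.05.

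Transcripts known as editing substrates were measured for their level alone. Of 23 ADAR substrates, 22 were measured, none passed (5 at an unadjusted limma p under 0.05), 11 were positive and the median was -0.0047. Cyfip2, an actin regulator recoded by editing in the brain, had 11.89, 11.84 and 11.82 in the mutants, against 11.55, 11.49 and 11.50 in the controls. Its groups did not overlap, and its log2 difference of 0.33 ± 0.06 (SE) missed the threshold (limma adjusted p = 0.072). With array weights it passed (limma adjusted p = 0.0113). Cadps, a factor of dense-core vesicle release, differed by 0.34, and the splicing regulator Nova1 by 0.28 (limma adjusted p = 0.439 and 0.298). Of 19 transcripts known to be edited by APOBEC1, all were measured, none passed (1 at an unadjusted limma p under 0.05), 16 were positive and the median was 0.03. Bche, which encodes butyrylcholinesterase, differed by 0.23 and was the gene at p under 0.05, with a mean level of 5.24 that lies under the dim limit. The lysosomal gene Lamp2 differed by 0.15 and B2m, the light chain of MHC class I, by 0.15. For B2m the low value was control replicate 1, at 9.92, and the other 5 arrays lay between 10.29 and 10.40. Leaving out 1 array gave medians of -0.0092 to 0.0100 for the ADAR substrates and of 0.01 to 0.05 for the transcripts edited by APOBEC1.

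Adar and Apobec3 are known to respond to interferon, and Adar keeps double-stranded RNA sensors from reacting to the cell's own RNA. None of 10 measured genes of 11 listed for double-stranded RNA sensing passed, and 8 were positive with a median of 0.06. This median was 0.02 without mutant replicate 3, 0.10 without mutant replicate 2, 0.12 without control replicate 2 and 0.13 over the 5 genes above the dim limit. Eif2ak2, the RNA-activated kinase PKR, differed by 0.21, Oas2 by 0.14 and the adaptor Mavs by 0.13. None of 12 measured genes of 15 interferon-induced genes passed, and 5 were positive with a median of -0.01. Ifit3, Rsad2 and Ifit2 had the largest differences, at -0.14, 0.09 and -0.08, and 7 of the 12 lay above the dim limit. Neither list held a gene at an unadjusted limma p under 0.05. The median of the 12 interferon-induced genes ranged from -0.09 without mutant replicate 3 to 0.11 without control replicate 3. Mean levels of these 12 genes were 6.77, 6.64 and 6.98 in the mutants, against 6.74, 6.64 and 7.03 in the controls. Replicate 3 was the highest array in both genotypes.

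**Figure D3:**
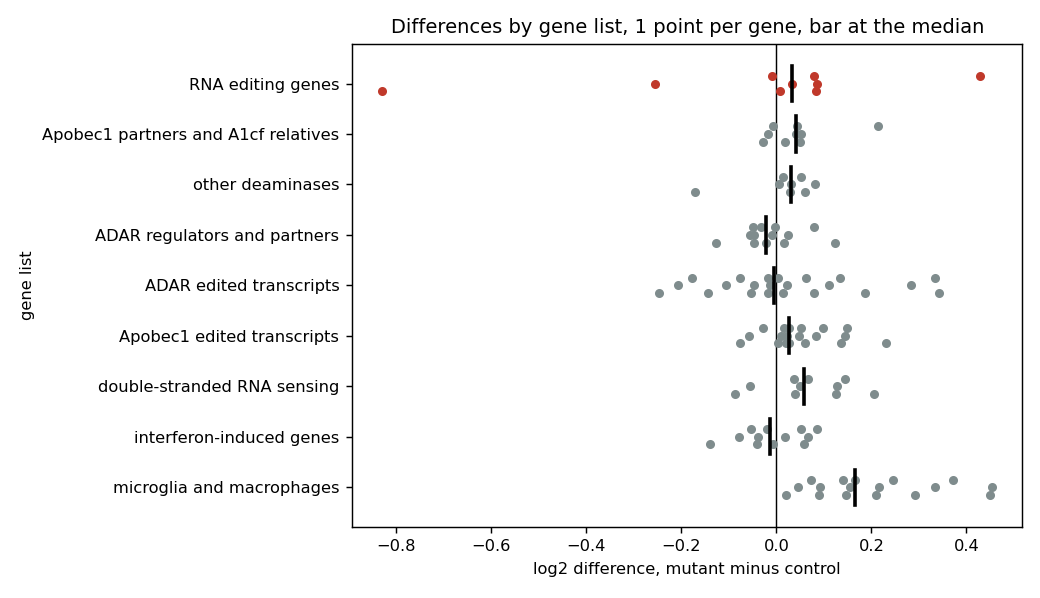
Log2 difference of mutant minus control for each measured gene of the RNA editing genes and 8 related lists, 1 point per gene offset vertically for sight, with a black bar at the list's median. Apobec1 lies at -0.83, all 17 microglia and macrophage genes lie above 0 with a median of 0.17, and the medians of the other lists lie between -0.02 and 0.06.

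Apobec1 and Apobec3 are known to be expressed in macrophages and other immune cells, so markers of these cells are given beside them. Of 18 listed genes of microglia and macrophages, 17 were measured, 17 were positive and none passed (5 at an unadjusted limma p under 0.05), with a median of 0.17. Their mean log2 level was 7.26, 7.03 and 7.09 in the mutants, against 6.85, 6.97 and 6.95 in the controls. The groups did not overlap for this mean, and mutant replicate 1 was the highest array, as it was for Apobec3. Of the 17, 12 were above the dim limit. Fcrls, Mrc1 and C1qb had the largest differences, at 0.45, 0.45 and 0.37. Mrc1, the mannose receptor of macrophages at the borders of the brain, had 6.83, 5.72 and 5.71 in the mutants, against 5.70, 5.74 and 5.47 in the controls. Mutant replicate 1 stood apart, and the other 5 arrays overlapped between 5.47 and 5.74, under the dim limit. Csf1r, the receptor that microglia need to survive, differed by 0.29 with groups that did not overlap. Without mutant replicate 1 the list median was 0.13 and Apobec3 differed by 0.36. The part of these cells in the differences of Apobec1 and Apobec3 was not tested.

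**Figure D4:**
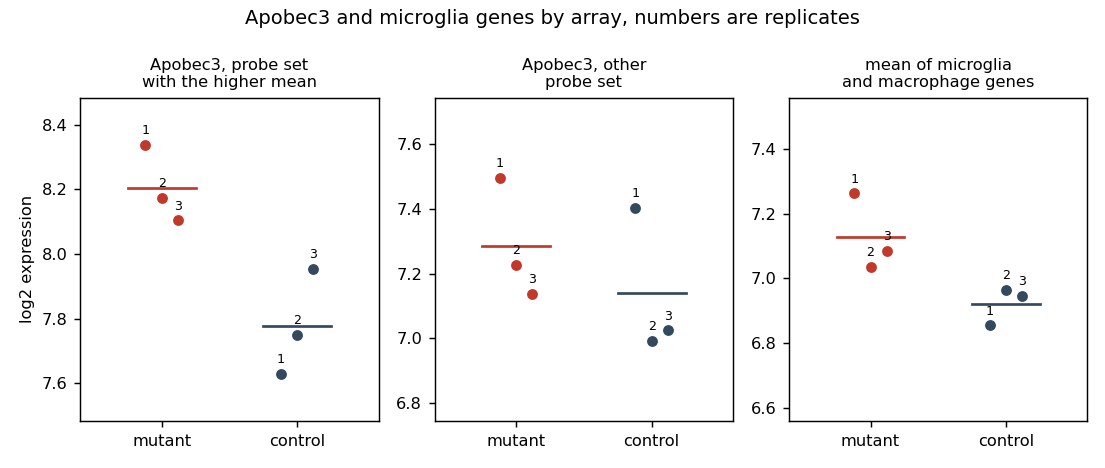
Log2 expression by array for both probe sets of Apobec3 and for the mean of 17 microglia and macrophage genes, with the replicate number above each point and a line at the group mean. In the left and right panels the mutants lie above the controls with replicate 1 as the highest mutant, and in the middle panel the groups overlap, with control replicate 1 at 7.40.

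Most red cell markers also differed between the groups. Whether this reflects more red cells or more RNA of these genes per cell was not tested. Of 10 measured erythroid genes of 12 listed, all were positive, with a median of 0.64. Of these, 6 passed, from Epb42 at 0.55 to Hbb-bh1 at 5.02 (Hbb-bh1, Slc4a1, Hba-x, Kel, Rhag and Epb42). Without passing, Alas2 differed by 0.71 and Hbb-y by 0.59, and Klf1 and Gata1 by 0.11 and 0.01 with overlapping groups. Over the 6 erythroid genes above the dim limit the median was 1.04. The mean level of all 10 measured erythroid genes was 8.45 to 8.56 in the mutants, against 7.33 to 7.45 in the controls. Hbb-bh1, which had 10.98, 11.40 and 11.43 in the mutants against 6.48, 5.76 and 6.53 in the controls, is part of this mean. Of 12 genes of pericytes and meninges, 11 were positive and none passed, at a median of 0.34. Leaving out mutant replicate 1 gave 0.14 for this median, and array weights gave 0.19. In mutant replicate 1 their mean was 8.15, against 7.27 and 7.35 in the other mutants, and Dcn, Lum and Vtn had the largest differences, at 2.09, 0.91 and 0.66. All 10 endothelial genes were positive, with a median of 0.12 and none past the threshold, and Tek, Kdr and Esam differed most, by 0.32, 0.23 and 0.21. The endothelial mean was 9.11, 8.73 and 8.85 in the mutants, against 8.63, 8.75 and 8.87 in the controls, with mutant replicate 1 as the highest array. The endothelial median was 0.05 without mutant replicate 1, 0.21 without mutant replicate 2 and 0.18 without control replicate 3. Of 8 genes of GABAergic interneurons, 7 were measured, 6 were positive and none passed, with a median of 0.09, and Lhx6, Gad2 and Gad1 differed most, by 0.28, 0.12 and 0.11. The interneuron median was 0.02 without mutant replicate 3, 0.03 without control replicate 1 and 0.15 without control replicate 3. Of the neocortical genes 7 of 10 were positive and none passed, with a median of 0.02, and Eomes, Emx2 and Tubb3 differed most, by 0.21, -0.15 and 0.14. The neocortical median lay between -0.0067 and 0.05 when 1 array was left out, and was 0.07 with array weights. At an unadjusted limma p under 0.05 there were 4 pericyte and meninges genes and 1 gene each of the endothelial, interneuron and neocortical lists. The part of these cell types in the differences of the RNA editing genes was not tested. Without mutant replicate 1, Apobec1 differed by -0.91.

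Among the 5 nearest genes on each side in the RefSeq gene order, Rimklb, Mfap5, Gdf3 and Dppa3 had a probe set that was tested. They differed by 0.06, 0.07, -0.01 and 0.07, and none passed (limma adjusted p = 0.9995 for each). Rimklb read above the dim limit, and Mfap5, Gdf3 and Dppa3 lay under it, where RMA understates changes. None of the 9 RNA editing genes lies on the chromosome of Bcl11a. Among genes named from the other lists, Cyfip2, Hba-x, Slc4a1 and Vtn lie on it. Whether this place bears on their differences was not tested.

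The genes whose values over the 6 arrays were most like those of Apobec1 were Cacna1h, Nptx1, Shc3, Tbata and Crabp1. They were chosen by Pearson's r among genes above the dim limit, which was 0.984 to 0.992 over the 6 arrays. All values come from the same arrays, and the difference between genotypes is part of each r, so this is a description only. Crabp1, a binding protein of retinoic acid, had 9.74, 9.45 and 9.31 in the mutants, against 10.53, 10.46 and 10.37 in the controls. Nptx1, a neuronal pentraxin, had 8.85, 8.77 and 8.67 in the mutants, against 9.14, 9.16 and 9.19 in the controls. Shc3, a neuronal adaptor protein, had 10.41, 10.37 and 10.33 in the mutants, against 10.75, 10.78 and 10.73 in the controls. Cacna1h, a T-type calcium channel gene, differed by only -0.15, and Tbata by -0.22.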

How the data were processed

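RNA of 6 samples of the neocortex was hybridised to 1 array per sample. Per the submitters' processing notes, the authors used Affymetrix Expression Console and RMA, which corrects background, applies quantile normalization and summarises probe sets. The deposited values were taken as log2, since they lay between 3.41 and 13.8. RMA understates changes of dim genes and hides a shift shared by most genes. Versions and the array's genome build are not stated in the sources used here.

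The platform annotation that GEO holds gave the gene names of probe sets. Of 35556, 21789 had 1 symbol, 1621 several and 12146 no gene listed here, and 21698 were matched by Entrez number to RefSeq (GRCm38.p6). For 999 genes with several probe sets the one with the highest mean was taken, so that 19938 genes were tested. The test of mutant against control was limma 3.58.1 (R 4.3.3) with lmFit and eBayes, no covariate, two-sided, adjusted by Benjamini-Hochberg over all genes. The fit was tested on simulated data. Intervals are the fit's 95% intervals, and the number of arrays limits precision.

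The members and gene lists were chosen with earlier results of these data known. Named were the 9 genes, Bcl11a, list genes past the threshold, the 3 largest differences of each list, measured genes among the 5 on each side of Apobec1, and the 5 genes most like Apobec1. Chosen after their values were seen were Csf1r and, for the check of tissue, Emx1, Neurod6 and Tbr1. So were Alas2, Hbb-y, Klf1 and Gata1, the erythroid genes that did not pass. The 2 motifs were also chosen after the windows were seen. Alternatives were leaving out each array, other scaling, array weights, a replicate block, a dim filter and other uses of probe sets. The deviations of mutant and control arrays 1, 2 and 3 from their groups correlated at 0.03, -0.14 and 0.08, so the numbers were not taken as pairs.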

Additional observations from a re-analysis of the deposited data

How the results depend on the processing

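Apobec1 prompted the list, so its values are a description, and its difference lay between -0.91 and -0.79 when 1 array was left out. The count of RNA editing genes called, Apobec1 included, was 2 with array weights, where Apobec3 was added at 0.43. Under the other 12 alternatives it was 1, and no gene of the list other than Apobec1 was called. The number of all genes called lay between 20 and 50 in the fits on 5 arrays (20 without mutant replicate 2 or control replicate 2, 25 without mutant replicate 1 and 33 without mutant replicate 3). It was 217 with array weights and 34 with a replicate block, where the Apobec1 difference was -0.83 and no other RNA editing gene was called. It was 61 after a second quantile normalization, 64 with arrays centred on their medians and 56 with the mean of a gene's probe sets. With the dim filter it was 54, of the 13850 genes above the dim limit. With each probe set tested on its own the count was also 54, on a different base than the 19938 genes. Signs turned only among differences near 0, in fits that left out 1 array. A1cf ranged from -0.0203 to 0.0405, Syncrip from -0.0496 to 0.0410 and Adar from -0.00289 to 0.0522. Apobec3 ranged from 0.35 to 0.52 in those fits, and Apobec2 from -0.37 to -0.12. The erythroid list held 3 to 8 called genes over the alternatives. For A1cf, Rbm47 and Adarb2, the dim filter gave no value. The cause of the changes with array weights was not tested.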
